A study of Rattus norvegicus with 183 samples.

Results

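The 8 genes described here encode the class II antigen presentation machinery of the rat: the classical class II chains RT1-Ba, RT1-Bb, RT1-Da and RT1-Db1, the invariant chain Cd74, the peptide exchange factor chains RT1-DMa and RT1-DMb, and Ciita, the transcriptional coactivator of the family. They were taken by symbol from a table of 38354 genes, and all 8 were found. The table comes from polyA RNA sequencing of posterior ventral tegmental area, part of the midbrain and rich in dopamine neurons, of outbred heterogeneous stock rats. There is 1 group of animals, with no treatment, genotype, sex or age in the labels, so the questions are how the 8 genes vary between libraries, which of them vary together, and with which cell type genes they vary. The 31 samples labelled as removed were not analysed here. The animals' identifiers come in a decimal form and a hexadecimal form, and nothing in the labels says what the form stands for.

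MHC class II molecules are heterodimers of an alpha and a beta chain that carry peptides from endocytosed proteins to the cell surface, where CD4 T cells read them. In the endoplasmic reticulum Cd74 blocks the groove of a new dimer and steers it to endosomes. There proteases cut Cd74 down to a short fragment, and the DM heterodimer exchanges that fragment for another peptide. RT1-B is the rat counterpart of human HLA-DQ and RT1-D that of HLA-DR. Transcription of the family depends on a promoter complex of RFX, CREB and NF-Y proteins to which CIITA is recruited, and interferon gamma is the best known inducer of CIITA. In healthy brain the class II genes are known chiefly from macrophages of the meninges and perivascular spaces, with little in resting microglia.

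Of the 8 genes, 6 lie on chromosome 20, and the deposited table places each member at 1 end of the matching RefSeq gene in GRCr8. RT1-Da spans bases 4515393 to 4520387, RT1-Db1 4550594 to 4560182, RT1-Ba 4577057 to 4581650, RT1-Bb 4598475 to 4604118, RT1-DMb 4695009 to 4702560 and RT1-DMa 4708932 to 4712335. Cd74 lies on chromosome 18 (56527071 to 56536406) and Ciita on chromosome 10 (5646854 to 5694393). A promoter sequence was found for 6 members in RefSeq (GRCr8). The promoter stretch of each is shown here because the members with promoters differ in how closely their transcript levels follow one another, which the later results describe. Each is 65 bases long, on the gene's strand, and lies upstream of the gene. Capitals mark the Y box (ATTGG, the site NF-Y is known to bind, or CCAAT where it is read on the opposite strand) and, where it was found, AGNAAC at 24 to 32 bases upstream of a Y box.
Cd74, chr18:56526967-56527031, plus strand: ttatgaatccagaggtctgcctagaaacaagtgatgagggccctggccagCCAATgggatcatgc
RT1-Da, chr20:4515316-4515380, plus strand: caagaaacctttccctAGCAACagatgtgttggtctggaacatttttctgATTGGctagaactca
RT1-Db1, chr20:4560228-4560292, minus strand: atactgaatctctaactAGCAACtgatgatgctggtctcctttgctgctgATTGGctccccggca
RT1-Ba, chr20:4576964-4577028, plus strand: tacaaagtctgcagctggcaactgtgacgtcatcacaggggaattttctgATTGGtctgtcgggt
RT1-Bb, chr20:4604165-4604229, minus strand: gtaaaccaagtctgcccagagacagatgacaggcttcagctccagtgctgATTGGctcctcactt
RT1-DMa, chr20:4712385-4712449, minus strand: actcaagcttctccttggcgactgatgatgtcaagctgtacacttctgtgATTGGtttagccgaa

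A Y box on either strand was found in all 6 promoters of 300 bases, against 37.5% of the 33469 promoters of the table. On the gene's own strand it was found in 5 of the 6, against 22.3%. The marked boxes begin 54 bases before the start of the gene as the deposited table places it for Cd74, 27 for RT1-Da, 60 for RT1-Db1, 43 for RT1-Ba, 61 for RT1-Bb and 64 for RT1-DMa. AGNAAC followed after 24 to 32 bases by ATTGG was found in RT1-Da and RT1-Db1, the alpha and beta chain of the same molecule, and in 0.544% of all promoters on either strand. The gap was 28 bases in RT1-Da and 27 in RT1-Db1. Only these exact letters were searched. The stretches of RT1-Ba and RT1-DMa hold the similar letters ggcaac and ggcgac upstream of the Y box, which were not counted. The stretch of RT1-Bb also holds letters similar to AGNAAC upstream of its Y box, likewise not counted. The stretch of Cd74 holds AGNAAC itself, but fewer than 24 bases before its box, which is on the opposite strand. It was therefore not counted either, and the search does not show that these members lack such a site. The interferon gamma-activated site TTCNNNGAA, searched on both strands, was not found in these 6 windows and is present in 8.87% of all. These are matches of letters and say nothing of binding in this tissue.

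Th encodes tyrosine hydroxylase, the defining enzyme of dopamine neurons. It was at or above 10 CPM (counts scaled to a library total of 1000000) in 53 libraries with a decimal, 87 with a hexadecimal and 1 with another identifier. The other 11 libraries lacked Th, and their dopamine neuron markers summed to 31.1 to 48.2 CPM against 1599 to 8110 CPM in the libraries with Th. They go against the tissue label, so they were kept out of the results and are given only as ranges. The libraries with Th held 15159892 to 57159153 estimated counts, so that 1 CPM stands for at least 15.2 counts. Nothing says how the tissue pieces were taken or batched, and in bulk tissue fewer cells of a type and less RNA per cell cannot be told apart.

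The peptide-binding chains and Cd74 ranged widely between animals, whereas the DM chains did not. Cd74 had 2.06 CPM in its lowest, 15.7 in its median and 109.9 in its highest library, and its quartiles were 9.29 and 27.0 CPM. RT1-Ba, the alpha chain of the DQ-like molecule, ran from 0.0644 over 3.29 to 22.0 CPM. RT1-Bb, its beta chain, ran from 0.254 over 3.03 to 21.9 CPM. These 3 genes therefore spanned more than an order of magnitude among animals of 1 group. The RT1-Da alpha chain of the DR-like molecule ran from 0.322 over a median of 3.09 to 29.4 CPM. For its beta chain RT1-Db1 the values were 0.249, 5.82 and 20.8 CPM, and its quartiles (3.98 and 8.14 CPM) were closer together than those of RT1-Da (1.81 and 6.19). Ciita was close to the limit of detection, with a median of 0.188 CPM or 5.00 counts, a highest value of 2.44 CPM and no count in 14 libraries. RT1-DMa ran only from 10.3 over 21.3 to 38.8 CPM and RT1-DMb from 6.75 over 13.2 to 25.0 CPM.

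On the log2(CPM + 1) scale the SD over libraries was 1.06 for Cd74, 0.99 for RT1-Da, 0.92 for RT1-Bb, 0.89 for RT1-Ba, 0.73 for RT1-Db1, 0.34 for RT1-DMa, 0.34 for RT1-DMb and 0.32 for Ciita, whose spread is held down by its low counts. Among the 15546 genes whose mean on this scale was at least 1, RT1-Da was 194th in SD, RT1-Bb 259th, RT1-Ba 291st and RT1-Db1 553rd, whereas RT1-DMb and RT1-DMa were 3912th and 4044th. Ciita had a mean of 0.34 and did not pass this minimum, so 7 of the 8 members entered the tests that follow. The deposited counts carry no transcript length, and levels are therefore not compared between members. Reads of class II genes can be shared between near copies, so the split between the beta chain genes RT1-Db1 and RT1-Db2 is uncertain. The class II genes are also highly polymorphic in rats, and whether all alleles of these outbred animals are counted equally was not tested.

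**Figure D1:**
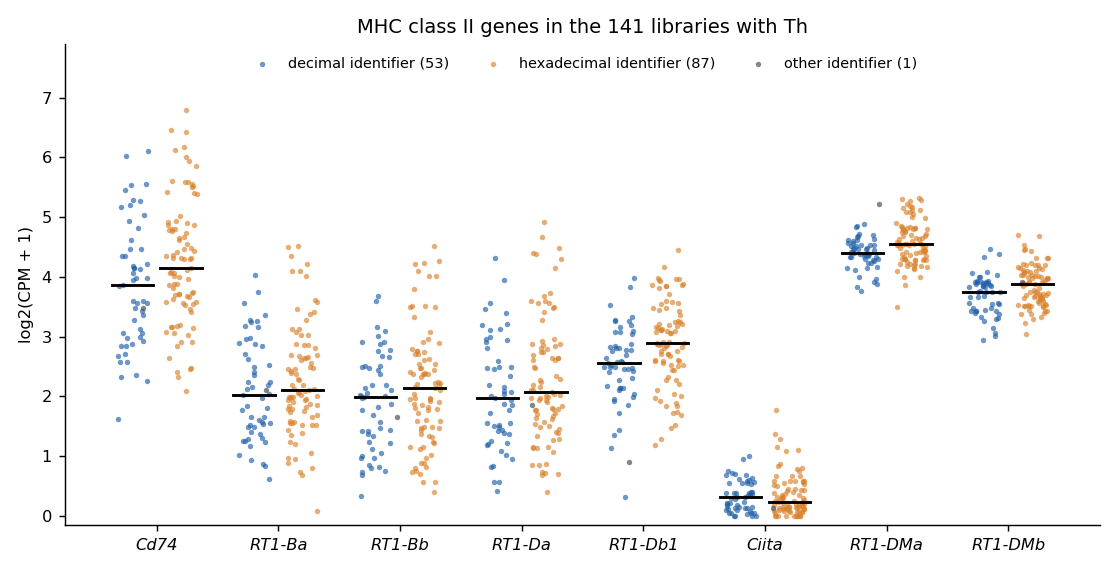
Levels of the 8 class II genes as log2(CPM + 1) (vertical axis), 1 point per library with Th, blue for a decimal, orange for a hexadecimal and grey for another identifier. Black bars are medians of the libraries of a form; Cd74 and the 4 classical chains spread widely, and RT1-DMa and RT1-DMb stay within 10.3 to 38.8 and 6.75 to 25.0 CPM.

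The 11 libraries without Th lay inside the range of the others for every member. Their Cd74 was 4.66 to 12.4 CPM (median 8.96), RT1-Ba 0.577 to 2.86, RT1-Bb 0.444 to 2.43, RT1-Da 0.732 to 2.18, RT1-DMa 13.9 to 19.9 and RT1-DMb 7.58 to 11.9 CPM. RT1-Db1 stood lowest relative to the rest, with 0.666 to 1.56 CPM, and all but 5 of the libraries with Th were above the highest of the 11.

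Hexadecimal libraries had more RT1-Db1, RT1-DMa and RT1-DMb than decimal ones. RT1-Db1 ran from 0.249 over a median of 4.91 to 14.8 CPM in the decimal and from 1.27 over 6.41 to 20.8 CPM in the hexadecimal libraries, which overlap over most of that range. Its log2 difference, hexadecimal minus decimal, was 0.35 ± 0.12 (SE, adjusted p = 0.0146, limma with Benjamini-Hochberg adjustment over 15547 genes). For RT1-DMa the medians were 20.1 and 22.4 CPM and the difference was 0.19 ± 0.056 (limma adjusted p = 0.00475). RT1-DMb had medians of 12.4 and 13.7 CPM and a difference of 0.16 ± 0.058 (limma adjusted p = 0.0207). Thus 3 of 7 members passed on the higher side, where 14.3% of all genes did. The median log2 difference was 0.23 for the 7 members and -0.02 for all genes. Cd74 differed by 0.38 ± 0.18 (limma adjusted p = 0.0837), with medians of 13.6 and 16.7 CPM, and did not pass. RT1-Ba, RT1-Bb and RT1-Da differed by 0.17, 0.25 and 0.23 and did not pass either. What the form of the identifier stands for is unknown, so later values are also given within each form.

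The members fell into a tight set of 4, 2 looser followers and a separate pair. Among Cd74, RT1-Da, RT1-Ba and RT1-Bb the 6 pairwise Pearson correlations over the libraries with Th ran from 0.889 to 0.961. The highest joined Cd74 and RT1-Da (Spearman rho 0.955), followed by RT1-Ba with RT1-Da (0.943) and Cd74 with RT1-Ba (0.936), although Cd74 lies on another chromosome than its partners. Ciita correlated at 0.698 to 0.728 with these 4 despite its few counts. RT1-Db1 correlated with them at 0.524 to 0.629. RT1-DMa correlated with the same 4 at -0.089 to 0.053 and RT1-DMb at 0.326 to 0.360. The DM chains followed each other instead, with r = 0.684. Over all 28 pairs the mean r was 0.477 (jackknife SE 0.039 over libraries), and leaving out any 1 library moved it only between 0.457 and 0.485. These correlations describe the libraries, which share cell composition and scaling, and carry no test.

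The tight set of 4 and the DM pair were also seen within each identifier form. The 4 genes had r of 0.892 to 0.954 in the decimal and of 0.887 to 0.969 in the hexadecimal libraries. The DM chains had 0.752 and 0.647 with each other. With the 4 genes RT1-Db1 had 0.512 to 0.622 in decimal and 0.515 to 0.619 in hexadecimal libraries, and Ciita 0.660 to 0.766 and 0.685 to 0.757. The DM chains' relation to the 4 varied more, since RT1-DMa stood at 0.171 to 0.400 in decimal and at -0.231 to -0.109 in hexadecimal libraries, and RT1-DMb at 0.499 to 0.575 and 0.212 to 0.239. In decimal libraries the values of RT1-DMb thus overlapped those of RT1-Db1. The difference between forms in these correlations was not tested. The mean over all pairs was 0.557 in decimal and 0.430 in hexadecimal libraries.

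**Figure D2:**
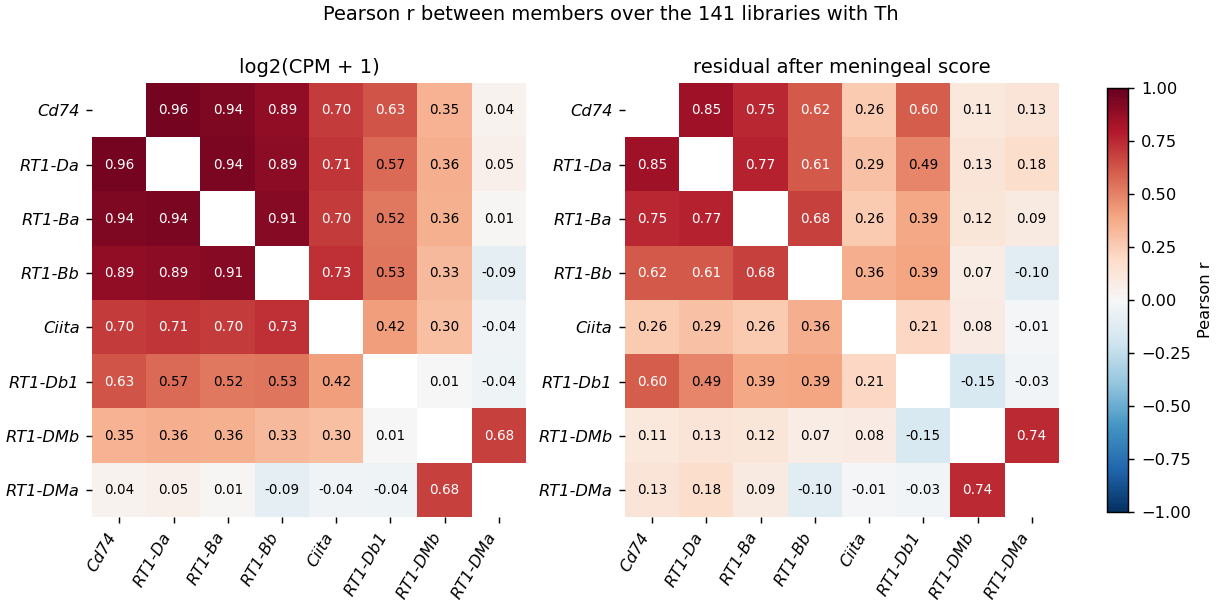
Pearson r between every pair of members over the libraries with Th, on log2(CPM + 1) (left) and for the residuals after a linear fit on the meningeal fibroblast score (right); red is positive and blue negative. Cd74, RT1-Da, RT1-Ba and RT1-Bb form a block, with 0.89 or more on the left and 0.61 or more on the right, and RT1-DMa with RT1-DMb keeps 0.68 and 0.74.

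RT1-Db1 was the odd member among the peptide-binding chains. Its partner RT1-Da kept a nearly fixed relation to Cd74, with an SD of 0.30 for the difference between the pair on the log2(CPM + 1) scale, whereas the difference of RT1-Db1 minus Cd74 had an SD of 0.83 and a right-hand tail. The difference of RT1-Db1 minus Cd74 had a median of -1.58, quartiles of -2.02 and -0.79 and a range from -2.59 to 0.90. In the 5 libraries at its high end RT1-Db1 was between 7.47 and 14.7 CPM, above its median, while RT1-Da was between 0.322 and 1.74 CPM, below its own lower quartile. In the highest of them RT1-Db1 was 8.31 CPM beside 3.99 of Cd74, 0.322 of RT1-Da and 0.0644 of RT1-Ba. The next had 14.7 CPM of RT1-Db1 beside 7.93 of Cd74. At the other end of this difference 1 library had 13.3 CPM of RT1-Db1 beside 85.4 of Cd74. Another had only 0.863 CPM of RT1-Db1 although its Cd74 was 10.1 and its RT1-Da 2.63 CPM, and the lowest of all in RT1-Db1, with 0.249 CPM, had 4.14 CPM of Cd74.

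No wide empty interval divided the libraries by this difference. Its widest empty interval with at least 5 libraries on each side lay between 0.31 and 0.51 and had 6 libraries above it, a gap of 0.246 SD. For RT1-Ba, RT1-Bb and RT1-Da minus Cd74 the widest such interval was at most 0.291 SD. RT1-Ba and RT1-Bb, the chains of 1 molecule, kept to each other with an SD of 0.38 for their difference, and RT1-DMa and RT1-DMb with an SD of 0.27. RT1-Da and RT1-Db1, also chains of 1 molecule, had an SD of 0.83. RT1-Db2, a second DR-like beta chain gene with a median of 0.462 CPM and no count in 8 libraries, correlated with RT1-Db1 at r = 0.560 and with Cd74 at 0.376.

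**Figure D3:**
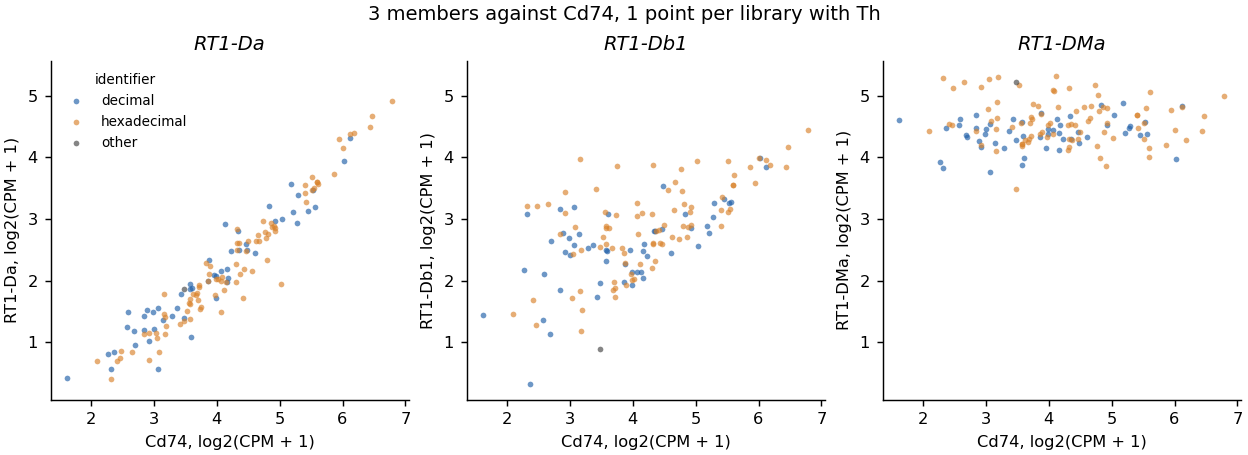
RT1-Da, RT1-Db1 and RT1-DMa against Cd74, all as log2(CPM + 1), 1 point per library with Th, coloured by identifier form. RT1-Da rises with Cd74 along a narrow band (r = 0.961), RT1-Db1 is scattered most where Cd74 is low (r = 0.629) and RT1-DMa stays level (r = 0.036).

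The libraries at the ends of the range were largely shared by the 4 tightly related genes. The library with the most Cd74, from a hexadecimal animal, was also the highest of all in RT1-Ba, RT1-Bb, RT1-Da, RT1-Db1 and Ciita, and it had the highest meningeal fibroblast score and 317 CPM of the collagen gene Col1a1. The library second in Cd74, with 87.4 CPM, was 3rd in meningeal score and had 317 CPM of Col1a1 and 12.3 CPM of Cd163, a scavenger receptor of border macrophages. At the low end 1 decimal library had the least Cd74 (2.06 CPM) and RT1-Bb (0.254 CPM), with 10.9 CPM of Col1a1 and 1.16 CPM of Cd163. Its RT1-DMa, at 23.3 CPM, was above the median of that gene. The library with the highest difference of RT1-Db1 minus Cd74 had the least RT1-Ba, where 0.0644 CPM stands for 1 count, and was 3rd in RT1-DMa with 37.9 CPM. RT1-DMa and RT1-DMb had other extremes: 1 library was second in both, with 38.6 and 24.8 CPM, while its Cd74 was 8.17 CPM. That library was 3rd in microglia score, and its meningeal score was -1.20 beside 2.44 in the library with the most Cd74.

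Levels of the tightly related genes rose with the meningeal fibroblast score. This score is the mean z-score of 14 genes of the fibroblasts of the brain's coverings, among them Col1a1, the growth factor gene Igf2 and the retinoic acid synthesis gene Aldh1a2. The summed level of the 14 genes ran from 104.5 to 4603 CPM in libraries with Th. For Cd74 the correlation with the score was r = 0.856 and rho = 0.849 (permutation p = 1e-05 for each, the smallest that 100000 resamples can give, adjusted p = 3.10e-05 and 3.21e-05 by Benjamini-Hochberg over 15532 genes). RT1-Da had r = 0.872, RT1-Ba 0.866 and RT1-Bb 0.834. RT1-Db1 correlated less, with r = 0.401 and rho = 0.345, and RT1-DMb had r = 0.346 and rho = 0.321. RT1-DMa had r = -0.0372 and rho = -0.0209 (permutation, adjusted p = 0.709 and 0.834).

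For the 4 tightly related genes these relations kept their size without the farthest libraries and within each identifier form. Without the 2 libraries farthest from the median score r was 0.844 for Cd74, 0.860 for RT1-Da, 0.853 for RT1-Ba, 0.818 for RT1-Bb, 0.356 for RT1-Db1 and 0.318 for RT1-DMb. Within decimal libraries r was 0.877 for Cd74 and 0.464 for RT1-Db1, and within hexadecimal ones 0.843 and 0.343. The DM chains differed more between the forms, with 0.517 and 0.236 for RT1-DMb and 0.297 and -0.199 for RT1-DMa. In all, 13 of the 14 relations of 7 members to the meningeal and microglia scores passed with Pearson's r. With Spearman's rho, RT1-DMa did not pass for microglia either. Such calls were common among all genes, of which 68.5% passed with the meningeal and 40.9% with the microglia score, and the members differ from one another in the size of r more than in the call. Ciita, tested without the minimum level, had r = 0.702 and rho = 0.698 with the meningeal score (permutation, adjusted p = 6.02e-05 and 6.30e-05).

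**Figure D4:**
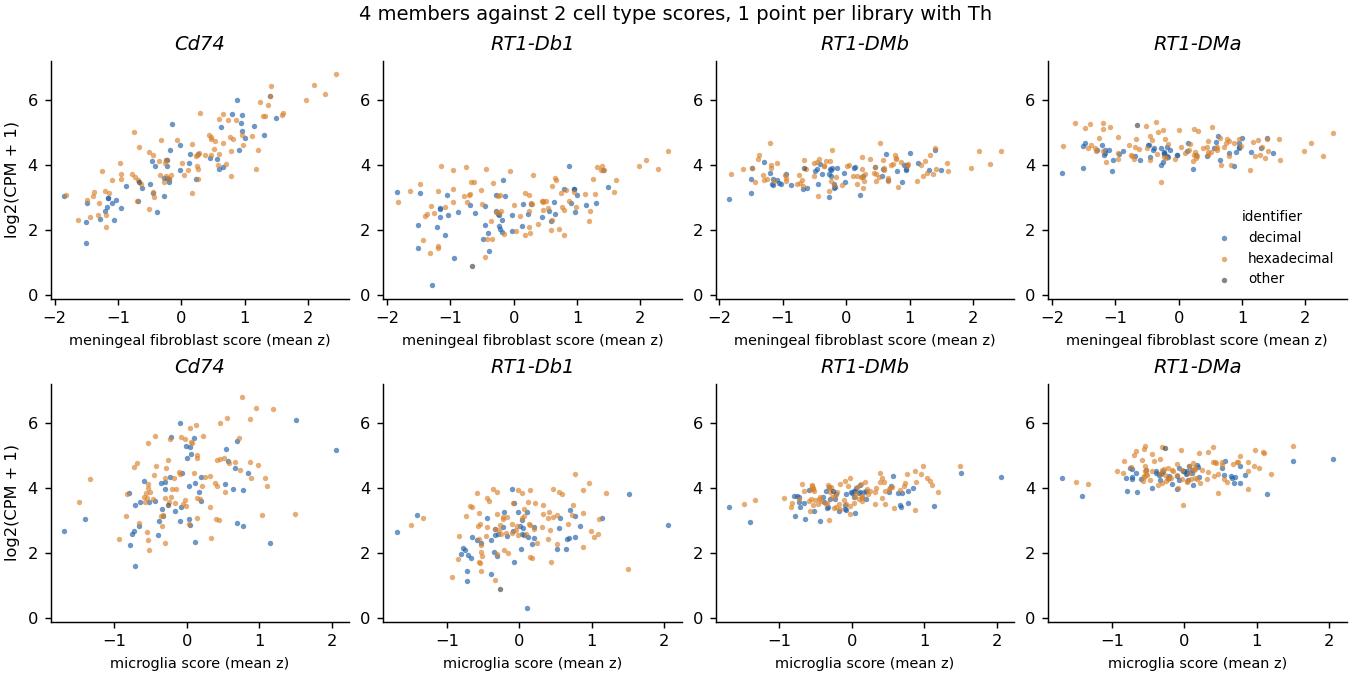
Cd74, RT1-Db1, RT1-DMb and RT1-DMa as log2(CPM + 1) (vertical axes) against the meningeal fibroblast score (upper row) and the microglia score (lower row), both as mean z-scores, 1 point per library with Th, coloured by identifier form. Cd74 climbs with the meningeal score (r = 0.856) and spreads widely over the microglia score (r = 0.391); RT1-DMb follows the microglia score more closely (r = 0.510) than the meningeal one (r = 0.346).

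In a linear model with the identifier form as a covariate (limma, 140 libraries, without the 1 library of another form), the slope of Cd74 on the meningeal score was 0.90 ± 0.046 in log2 units per score SD (SE, adjusted p = 9.03e-40), a 1.87-fold change. RT1-Da rose by 0.87 ± 0.041, RT1-Ba by 0.78 ± 0.038 and RT1-Bb by 0.77 ± 0.043, each at a limma adjusted p of 9.36e-36 or less. These slopes were 34th, 43rd, 75th and 79th of 15533 genes. For RT1-Db1 the slope was 0.27 ± 0.054 (limma adjusted p = 7.18e-06) and for RT1-DMb 0.11 ± 0.027 (0.000129). With median-of-ratios size factors the slope of RT1-DMb was 0.07. RT1-DMa had -0.02 ± 0.027 (limma adjusted p = 0.501). So 6 of 7 members rose with the score, beside 50.1% of all genes tested (70.8% in either direction), and the median slope was 0.77 for the 7 members and 0.04 for all genes. Without the minimum level Ciita had a slope of 0.22 ± 0.019 (limma adjusted p = 1.47e-20).

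Genes of several other cell types moved with the meningeal score as well. All 5 tested erythrocyte genes rose (median slope 0.52), as did all 3 tested monocyte and neutrophil genes (0.40) and all 8 tested border macrophage genes (0.56). So did 7 of 8 activated microglia genes (0.23), 6 of 8 mural cell genes (0.35) and 11 of 18 microglia genes (0.06). Of all genes 50.1% rose and 70.8% moved in either direction, with a median slope of 0.04, and the microglia genes stood near that background. All 7 oligodendrocyte genes fell (-0.13). In libraries with Th the erythrocyte genes summed to 70.6 to 5088 CPM. The monocyte and neutrophil genes summed to 19.9 to 179.0 CPM there, and the activated microglia genes to 104.3 to 1051 CPM. Much of the activated microglia sum was Spp1, which alone ran from 12.3 over a median of 165.8 to 984.2 CPM. The medians of the other tested activated microglia genes ran from 1.74 CPM for Itgax to 38.6 CPM for Axl. Cd74 had r = 0.773 with the monocyte gene Plac8 and 0.696 with Lyz2, a lysozyme gene of myeloid cells. It had 0.236 with Csf3r, the remaining tested gene of the monocyte and neutrophil list. With Lgals3, Ch25h and Cd68, listed for activated microglia, it had 0.785, 0.756 and 0.718, and with Spp1 of the same list -0.203. The monocyte and neutrophil genes S100a8, Ccr2 and Mpo had medians of 0.0403, 0.215 and 0.0383 CPM and r of 0.433, 0.491 and 0.108 with Cd74. The part of these cell types in the members' slopes was not tested.

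Relations to the microglia score were weaker for the classical chains and Cd74, and RT1-DMb was the member that followed it most closely. The 18 microglia genes, which include the receptor genes Cx3cr1, P2ry12 and Csf1r and the complement gene C1qc, summed to 460.9 to 926.4 CPM and varied far less than the meningeal genes. RT1-DMb had r = 0.510 and rho = 0.443 (permutation p = 1e-05 for each, adjusted p = 8.21e-05 and 9.33e-05). For RT1-Ba r was 0.414, for RT1-Da 0.394, for RT1-Bb 0.392, for Cd74 0.391 and for RT1-Db1 0.251. RT1-DMa had r = 0.219 (permutation, adjusted p = 0.0255) and rho = 0.175 (permutation, adjusted p = 0.0835). Within decimal and hexadecimal libraries r was 0.548 and 0.499 for RT1-DMb, 0.440 and 0.356 for Cd74, and 0.337 and 0.185 for RT1-DMa. Without the 2 farthest libraries it was 0.491, 0.370 and 0.197.

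Single microglia genes differed in how they related to the members. Tmem119 and P2ry12, genes held to mark resting microglia, had r of 0.000 and 0.046 with Cd74, whereas C1qc had 0.512 and Csf1r 0.492. RT1-DMb correlated with C1qc at 0.579, with C1qb at 0.536 and with Csf1r at 0.482, but with Tmem119 and P2ry12 only at 0.171 and 0.157. Among border macrophage genes Clec10a had r = 0.814 with Cd74, Stab1 0.802 and the mannose receptor gene Mrc1 0.730. The other tested genes of that list ran from 0.592 for Pf4 to 0.707 for Folr2. With RT1-DMb and RT1-Db1 the highest of the tested genes was Folr2, at 0.427 and 0.417. The meningeal genes Aldh1a2, Igf2 and Col1a1 had 0.857, 0.847 and 0.827 with Cd74.

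In the limma fit on the microglia score all 7 tested members rose, where 32.4% of all genes did (41.8% in either direction). Their median slope was 0.36 against 0.02 for all genes. Cd74 rose by 0.41 ± 0.081 (limma adjusted p = 1.52e-05), RT1-DMb by 0.17 ± 0.024 (2.47e-09) and RT1-DMa by 0.07 ± 0.027 (0.0186). The slopes of RT1-Da, RT1-Ba, RT1-Bb and RT1-Db1 were 0.39, 0.37, 0.36 and 0.17. With 87 hexadecimal libraries alone RT1-DMa (0.07, limma adjusted p = 0.226) and RT1-Db1 (0.15, adjusted p = 0.146) no longer passed. In decimal libraries alone RT1-Db1 did not pass either (0.20, limma adjusted p = 0.0520). With median-of-ratios size factors all 7 still passed, but the slopes were 0.25 for Cd74, 0.22 for RT1-Da, 0.20 for RT1-Ba and 0.18 for RT1-Bb (limma adjusted p of 0.0106 to 0.0362), while RT1-DMb had 0.16.

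The border macrophage score, the mean z-score of 8 genes such as Mrc1, Cd163 and Lyve1, moved with the meningeal score at r = 0.938 and with the microglia score at 0.469. The microglia and meningeal scores had r = 0.363. Fitted alone, the border macrophage score gave Cd74 a slope of 0.83 ± 0.054 and RT1-Da 0.81 ± 0.048, and 6 of 7 members rose, beside 52.2% of all genes. RT1-DMa, at -0.01 ± 0.027 (limma adjusted p = 0.737), was the exception, and in decimal libraries alone it rose by 0.0916 (limma adjusted p = 0.0181). Because both scores rise and fall together, the contributions of border macrophage and meningeal genes are hard to separate in these libraries.

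With microglia, border macrophage and meningeal scores in the same limma fit, the 5 members Cd74, RT1-Da, RT1-Bb, RT1-Ba and RT1-Db1 rose with the meningeal score, where 4.39% of all genes did. The slopes were 1.07 ± 0.14 for Cd74 (limma adjusted p = 5.20e-10), 0.93 ± 0.13 for RT1-Da, 0.85 ± 0.13 for RT1-Bb, 0.78 ± 0.11 for RT1-Ba and 0.63 ± 0.16 for RT1-Db1 (0.00535). The median was 0.78 for the 7 members and -0.01 for all genes. For RT1-DMb the slope was 0.06 ± 0.075 and for RT1-DMa -0.03 ± 0.081 (limma adjusted p = 0.745 and 0.906). In the 53 decimal libraries alone 2 of 7 members passed, beside 1.85% of all genes in either direction.

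For the microglia score in that fit, 5 of 7 members passed on the higher side, beside 21.0% of all genes. RT1-DMb had 0.15 ± 0.028 (limma adjusted p = 8.58e-06), RT1-DMa 0.10 ± 0.031 (0.00881) and Cd74 0.13 ± 0.053 (0.0423). RT1-Db1 and RT1-Ba passed at slopes of 0.15 and 0.11, and RT1-Bb and RT1-Da, at 0.11 and 0.10, did not (limma adjusted p = 0.0634 and 0.0771). None of these 5 calls was made in the decimal libraries alone, beside 9.85% of all genes in either direction. In the hexadecimal libraries 1 was made, beside 17.2%. For the border macrophage score the limma fit called 0 of 7 members, 1 at an unadjusted p under 0.05, beside 16.7% of all genes. That member was RT1-Db1, at -0.44 ± 0.17 (limma adjusted p = 0.0561). The border macrophage and meningeal scores had r = 0.938, so this fit separates these 2 scores poorly.

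**Figure D5:**
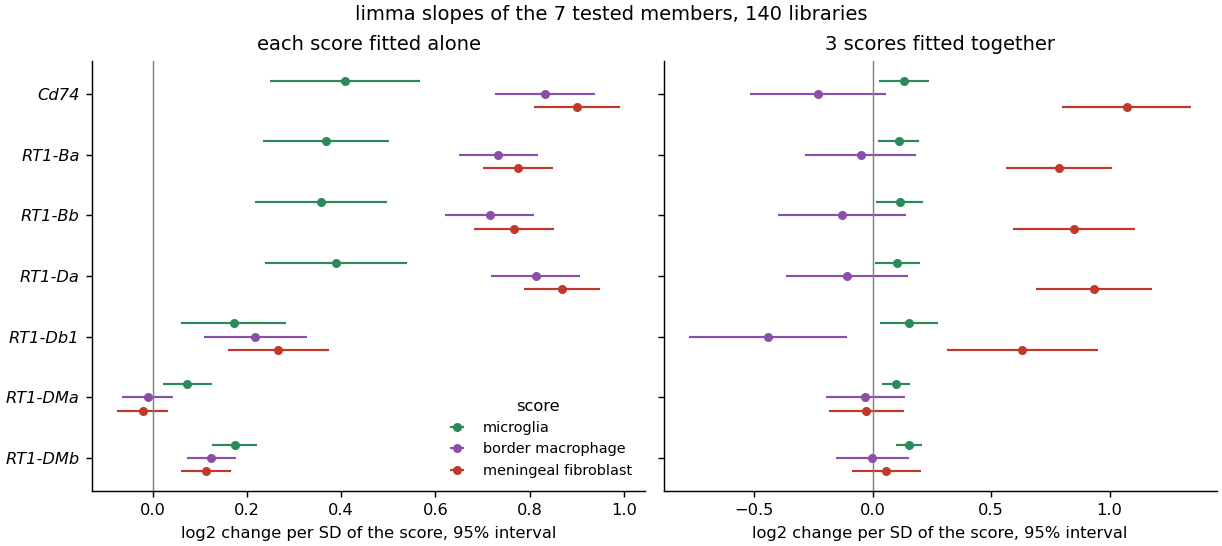
Slopes of the 7 tested members in log2 units per SD of a score (horizontal axis) with 95% intervals, from limma over 140 libraries, for each score fitted alone (left) and for the 3 scores together (right). On the right the meningeal slopes of Cd74, RT1-Ba, RT1-Bb, RT1-Da and RT1-Db1 lie between 0.63 and 1.07 with intervals above 0, and those of RT1-DMa and RT1-DMb include 0.

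The slopes were then compared between identifier forms. For the microglia score the difference in slope passed for 0 of 7 members by limma, 0 at an unadjusted p under 0.05, and for 0% of all genes. For the meningeal score it passed for 0 of 7, 1 at an unadjusted p under 0.05, beside 17.6% of all genes. The member was RT1-DMa, whose slope was lower by 0.15 ± 0.058 in hexadecimal libraries (limma adjusted p = 0.0543). That difference passed under 5 of the alternatives, with slopes lower by 0.16 in each and limma adjusted p of 0.0137 to 0.0464. The 95% interval of the difference was -0.36 to 0.03 for Cd74 and -0.19 to 0.16 for RT1-Da.

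Most members also rose with scores of other immune programmes. With the MHC class I score, made of the genes that load and form class I molecules, all 7 members rose, beside 38.5% of all genes: Cd74 by 0.67 ± 0.069 and RT1-Da by 0.66 ± 0.063 log2 units per SD, RT1-DMb by 0.15 ± 0.026 and RT1-DMa by 0.08 ± 0.027. With the type I interferon score 6 of 7 rose, beside 32.0% of all genes, Cd74 by 0.45 ± 0.080. Here RT1-DMa, at 0.05 ± 0.027 (limma adjusted p = 0.0987), did not pass. Without the 2 libraries farthest from the median interferon score the slope of Cd74 was 0.86 and that of RT1-Db1 0.31 in place of 0.15. Both scores also moved with the meningeal score, at r = 0.643 for class I and 0.442 for type I interferon. The part of meningeal or macrophage genes in these slopes was not tested.

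Lymphocytes and dendritic cells, the other known carriers of class II, left few counts. Among B cell genes Ms4a1 had no count in 75 libraries and a median of 0 CPM. Among T cell genes Cd3e had a median of 0.142 and Cd3d of 0.0420 CPM. The dendritic cell genes Xcr1, Clec9a and Ccr7 had medians of 0.176, 0.253 and 0.0541 CPM. Of the 8 B cell, 11 T cell and 9 dendritic cell genes 2, 1 and 3 passed the minimum level, among them Pax5, a gene also expressed in midbrain neurons (median 40.4 CPM). With Cd74 the genes that passed had r from -0.247 for Flt3 to 0.399 for Zbtb46. Those below the minimum level ran from -0.087 for Cd209a to 0.542 for Cd79a, with Cd8a at 0.528 and Cd3e at 0.461. The combined lymphocyte and dendritic cell score rests only on the 6 genes that passed. With it 5 of 7 members rose, beside 50.8% of all genes, Cd74 by 0.29 ± 0.085 (limma adjusted p = 0.002). None did when libraries were scaled by median-of-ratios size factors, where 20.8% of all genes passed in either direction.

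Of the wider class II pathway, Cd4 and Cd40 followed Cd74 most closely among the genes of T cell recognition and costimulation. Cd4, the coreceptor gene that macrophages of the rat also express, had a median of 11.4 CPM, an r of 0.783 with Cd74 and a slope of 0.39 ± 0.024 on the meningeal score (limma adjusted p = 6.32e-33). Cd40, a costimulatory receptor gene, had r = 0.648 with Cd74 and a slope of 0.25 ± 0.021. All 3 tested genes of the 8 for recognition and costimulation rose with both the meningeal and the microglia score, and Cd86, another costimulatory gene, rose by 0.08 ± 0.022 and 0.12 ± 0.021, where 50.1% and 32.4% of all genes rose. Cd86 had r = 0.241 with Cd74, and the 5 genes below the minimum level ran from -0.139 for Icos to 0.317 for Lag3.

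The 10 genes of the class II transcription complex were all measured, and 6 rose and 2 fell with the meningeal score, with a median slope of 0.05 beside 0.04 for all genes and 50.1% of all genes rising. With the microglia score 5 rose and 0 fell, where 32.4% of all genes rose. Nlrc5, the class I coactivator gene counted in this list, rose most among them, by 0.24 ± 0.034 on the meningeal score. Nfya, a subunit of the factor that binds the Y box shown above, rose by 0.13 ± 0.015 on it, and Nfyc, another subunit, fell by 0.07 ± 0.016 (limma adjusted p = 0.000129). Rfx5 had 49.2 to 77.8 CPM and an r of 0.109 with Cd74.

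Among the 10 antigen processing genes 5 rose and 2 fell with the meningeal score (median slope 0.03), no more than the 50.1% and 0.04 of all genes. With the microglia score 6 rose and 1 fell (median slope 0.08, beside 32.4% and 0.02 of all genes). Ctss, the protease that trims the invariant chain, ran from 150.6 over 218.7 to 354.0 CPM. It had r = 0.057 with Cd74 but 0.403 with RT1-DMa and 0.400 with RT1-DMb, and a slope of 0.16 ± 0.017 on the microglia score (limma adjusted p = 2.91e-14). On the meningeal score its slope was -0.03 ± 0.021 (adjusted p = 0.257). Ifi30, a lysosomal thiol reductase induced by interferon gamma, was related to more of the members, with r = 0.569 to Cd74, 0.537 to RT1-Db1 and 0.464 to RT1-DMb.

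The type II interferon pathway, known to induce Ciita, was read through its receptors, kinases and targets, since Ifng itself had a count in only 4 libraries. Of 9 tested genes of 12, 6 rose and 1 fell with the meningeal score and 6 rose with the microglia score, beside 50.1% and 32.4% of all genes. The guanylate-binding protein gene Gbp2 had r = 0.679 with Cd74 and 0.666 with Ciita, and Irf1 had 0.615 and 0.493. With Cd74 the receptor genes Ifngr1 and Ifngr2 had 0.102 and -0.117, Jak1 0.281 and Socs1 0.117, and Ifngr2 was the gene that fell, by 0.02 (limma adjusted p = 0.049). Other genes of the class II region were low, with medians of 0.0808 CPM for RT1-DOa, 0.377 for RT1-DOb and 0.0621 for RT1-Ha, apart from Brd2, a broadly expressed chromatin reader gene of the same region, which had r = 0.226 with Cd74 and -0.368 with RT1-DMa.

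The genes most like each member, by Pearson r among all other genes that passed the minimum level, divided along the same lines. For Cd74 they were led by Bgn (0.88), Gstm2 (0.88), Mfap4 (0.88), Sfrp1 (0.87) and Bmp6 (0.86), of which Bgn encodes the matrix proteoglycan biglycan and Mfap4 a microfibril-associated protein. The lists for RT1-Ba (led by Bgn, 0.87), RT1-Bb (Bmp6, 0.84) and RT1-Da (Gstm2, 0.89) held many of the same names. The 5 genes named for Cd74 had r of 0.952 to 0.988 with the meningeal score. For Ciita the closest were the complement gene C1r (0.75), the collagen gene Col5a1 (0.73) and Osr1 (0.73). For RT1-Db1 they were the annexin genes Anxa2 (0.64) and Anxa5 (0.62), Tmem37 (0.62) and Igfbp2 (0.61). With the meningeal score Anxa2 had r = 0.83, Igfbp2 0.86, Tmem37 0.49 and Anxa5 0.30.

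RT1-DMb was closest to Gnai2 (0.62), Necap2 (0.62) and Cyba (0.59), the last a subunit gene of the phagocyte oxidase, and its first 10 included C1qc (0.58) and the progranulin gene Grn (0.57). For RT1-DMa the closest were Pgls (0.64), which encodes an enzyme of the pentose phosphate pathway, 2510039O18Rikl (0.64), Rack1 (0.63), which encodes a ribosome-associated scaffold, and the kinase gene Mapk3 (0.62). In decimal libraries Pgls, Rack1 and Mapk3 had lower r with RT1-DMa (0.47, 0.37 and 0.46) than in hexadecimal ones (0.63, 0.63 and 0.59). Their r with the meningeal score was -0.09, -0.15 and -0.28.

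After a linear fit on the meningeal score the tight set and the DM pair still held together. The 6 correlations among Cd74, RT1-Da, RT1-Ba and RT1-Bb were 0.613 to 0.846 on the residuals, the highest again that of Cd74 with RT1-Da. RT1-Db1 had 0.603 with Cd74 after and 0.629 before, 0.490 and 0.569 with RT1-Da, 0.394 and 0.533 with RT1-Bb, and 0.385 and 0.524 with RT1-Ba. Ciita lost most of it, with 0.260 to 0.363 to the 4 genes. The DM chains had 0.743 with each other, while with the 4 genes RT1-DMb had 0.072 to 0.126 and RT1-DMa -0.105 to 0.176.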

How the data were processed

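Per the submitters' processing notes the authors quantified reads with kallisto 0.48, which returns estimated counts. The deposited values are on a log2 scale and were read as log2(estimated count + 1), a unit inferred from the values, because back-transformed library totals differ and lie between 15159892 and 57159153. Which genome build they used is not stated in these sources. The values were back-transformed, divided by the library total and scaled to 1000000 (CPM) and taken as log2(CPM + 1). Genes with a mean of at least 1 on this scale were tested. Scores are mean z-scores of the genes of a list without the members, and a list's own genes were not tested against it. Slopes per SD of a score were fitted with limma 3.58.1 (R 4.3.3, empirical Bayes with trend, identifier form as covariate) over 140 libraries, and r and rho were tested over 141 by two-sided permutation with 100000 resamples. P-values were adjusted by Benjamini-Hochberg over all genes tested, with 0.05 as the threshold. The limma code was tested on simulated data. Each library is taken as 1 animal, which the labels' separate identifiers imply; p-values measure the spread between these libraries. The members and lists were chosen with earlier results of these data known. The text names all members, genes of the lists, the genes with the highest r to a member, and libraries at the ends of a member's range. Alternatives were other scaling, pseudocount, filter, sets of libraries, covariate and score. Values of 2 listed genes are not reported here.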

Additional observations from a re-analysis of the deposited data

How the results depend on the processing

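Of the recomputed summary values 120 stayed and 19 did not stay within 1.5 times the value reported (or within 1 jackknife SE for the mean correlation). Scaling by median-of-ratios size factors shifted the median gene by -0.16 to 0.23 log2 units per library. It left 0 of 7 members related to the lymphocyte score, beside 20.8% of all genes in either direction. Hexadecimal libraries alone left 2, beside 56.3%. The microglia calls of the joint fit fell from 5 to 2 with no filter on low values, beside 14.6% of all genes in either direction. They fell to 0 in decimal libraries (beside 9.85%) and to 1 in hexadecimal ones (17.2%). Without the 2 libraries farthest from the median score they fell to 3 (34.0%). The meningeal calls of that fit fell from 5 to 2 in decimal libraries, beside 1.85% of all genes in either direction. The border macrophage calls of the joint fit rose from 0 to 1, always RT1-Db1 on the lower side. This was so with median-of-ratios size factors, with a pseudocount of 0.1, without the 2 farthest libraries and with no format covariate. In these settings 17.95% to 33.9% of all genes were called in either direction. With the 11 libraries without Th included, 5 members instead of 3 differed between identifier forms, beside 49.3% of all genes in either direction. Most of those 11 libraries have a decimal identifier, so in this setting the form and the presence of Th are mixed. A difference in meningeal slope between forms was called for 1 member, RT1-DMa, with a pseudocount of 0.1, with the libraries without Th included, without those above 100 CPM of the cortical gene Slc17a7, without the 2 farthest libraries and with median z-scores. The mean pairwise correlation was 0.557 in decimal and 0.430 in hexadecimal libraries. Of 847 values for single members 788 kept their side of the threshold, 40 lost and 18 gained a call and 1 reversed: the slope of RT1-DMa on the border macrophage score was 0.0916 in decimal libraries (limma adjusted p = 0.0181). The fits on 1 identifier form use fewer libraries; for the other changes the cause was not tested. Ciita, at a median of 5.00 counts, is limited by depth.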
